A study of Mus musculus with 13 samples.

Results

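Expression of 9 genes that mark naive and stem-like T cells was examined in sorted tumor T cells from mice with and without regulatory T (Treg) cells. The genes were Ccr7, Tcf7, Lef1, Bach2, Klf2, S1pr1, Il7r, Satb1 and Sox4, taken by their symbols from a deposited table of 12963 genes, and all 9 passed the filter on low values. All mice were of the Foxp3-EGFP-DTR genotype, in which cells that switch on the endogenous Foxp3 gene also make EGFP and a human receptor for diphtheria toxin, and all carried a subcutaneous B16-F10 tumor, a transplanted mouse melanoma line. Diphtheria toxin (DTx) kills Foxp3-expressing cells in these animals, while saline (PBS) leaves them in place. Bulk RNA-seq libraries fell into 5 groups, namely Treg cells of PBS-treated mice (Treg PBS, n = 3), their CD4 conventional T cells, or Tconv cells (CD4 PBS, n = 2), CD8 T cells with PBS (CD8 PBS, n = 2), CD4 Tconv cells with DTx (CD4 DTx, n = 3) and CD8 T cells with DTx (CD8 DTx, n = 3). The strain, age and number of animals behind a library are not in the labels; the study used age-matched adult mice of both sexes. Receptor-negative mice given DTx were not analysed here, so the toxin itself and the loss of Treg cells cannot be told apart.

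Naive T cells recirculate between blood and lymph nodes. CCR7 guides their entry into lymph nodes, S1PR1 guides their exit, and the IL-7 receptor keeps them alive between encounters with antigen. KLF2 is a transcription factor that switches on S1pr1. TCF1, the product of Tcf7, and LEF1 are related DNA-binding proteins that work with β-catenin and hold T cells in a self-renewing state. BACH2 represses effector genes, SATB1 organizes chromatin, and SOX4 shares the DNA-binding domain type of TCF1 and LEF1. Strong activation of a T cell is known to lower most of these genes. In bulk samples, fewer cells that express a gene and less RNA per cell cannot be told apart.

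Values are normalized reads, taken here as read counts of a gene divided by a size factor of its library. They were not divided by gene length, so levels were compared between groups and not between genes. The libraries held between 15947556 and 34140486 recovered reads, and 3 reads, taken as the detection floor, came to between 1.98 and 4.10 normalized reads. Foxp3 was between 1178 and 1896 normalized reads in Treg libraries and at most 12.1 in all others, Cd4 was at most 413 in CD8 libraries, and Cd8a was at least 23475 there. The lowest values of Cd4 in Treg and CD4 libraries stood at 10595, so the sorted populations carried their defining transcripts. CD8 transcripts in CD4 libraries were low but not equal between groups. Cd8a was at 31.4 and 26.4 with PBS and at 103, 711 and 1302 with DTx, above PBS in each library, and Cd8b1 was at 529 and 589 with PBS and at 267, 1641 and 2359.9 with DTx, above PBS in libraries 2 and 3. The share of the signal in the top 20 genes differed between DTx libraries, from 7.52% (number 3) to 10.3% (number 1) in CD4 cells and from 7.05% (number 3) to 10.3% (number 2) in CD8 cells. A gene was called where limma, fitted to log2(value + 1) over all 13 libraries, gave a Benjamini-Hochberg adjusted p under 0.05 and a change of more than 4-fold. The added 1 makes changes of low genes smaller on this scale. A library at 0 in a group can instead make them larger than the ratio of means.

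Start-site sequence is shown for Bach2 and Lef1, the genes called after DTx with a RefSeq entry whose 250 bases before the most upstream start held a searched motif, on the strand of the gene (GRCm38.p6). Capitals mark the motif matches.
Bach2, chr4:32417185-32417434, plus strand: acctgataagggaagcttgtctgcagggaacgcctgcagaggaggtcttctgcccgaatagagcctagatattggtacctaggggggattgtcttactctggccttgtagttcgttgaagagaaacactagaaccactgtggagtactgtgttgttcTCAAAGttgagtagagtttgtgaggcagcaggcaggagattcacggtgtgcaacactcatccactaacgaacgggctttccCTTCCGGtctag
Lef1, chr3:131110047-131110296, plus strand: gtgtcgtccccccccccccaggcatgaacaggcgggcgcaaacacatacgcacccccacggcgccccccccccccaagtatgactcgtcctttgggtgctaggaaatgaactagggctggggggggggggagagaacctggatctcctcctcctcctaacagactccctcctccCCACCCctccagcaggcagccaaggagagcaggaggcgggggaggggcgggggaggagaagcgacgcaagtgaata
Entries were found for 7 of the 9 genes, and there was none for Ccr7 and S1pr1. The core TCAAAG, which TCF1 and LEF1 bind, stood in 1 of the 7 windows (Bach2) and in 14.1% of 27025 such windows, counting both strands. The KLF core CCACCC stood in 2 windows (Klf2 and Lef1) and in 27.6% of all, and the ETS core CCGGAAG in 1 (Bach2, on the opposite strand) and in 7.07% of all. Neither the FOXO core GTAAACA nor the AP-1 and BACH core TGAGTCA stood in any of the 7, against 3.06% and 4.43% of all windows. No motif searched is contained in another. GC content was 50.4% in the Bach2 window, with 7 CpG sites, and 66.4% in the Lef1 window, with 11, against medians of 52% and 6 over all windows.

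The first question was how the genes differed between Tconv cells from mice with and without Treg cells. In CD4 cells 5 of the 9 genes were called lower after DTx, against 1.79% of the 12667 genes tested. They were Ccr7, Tcf7, Lef1, Bach2 and Sox4. The same 5 genes were called lower in CD8 cells, where 1.59% of all tested genes were. Klf2, S1pr1, Il7r and Satb1 were not called in either cell type, and no gene of the 9 was called higher (5.06% of all genes in CD4 and 3.87% in CD8 cells). Every DTx library lay below every PBS library for 8 of the 9 genes in CD4 cells and for 9 of 9 in CD8 cells, where 22.9% and 20.8% of all tested genes did so. The plot of values by library shows each group.

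**Figure D1:**
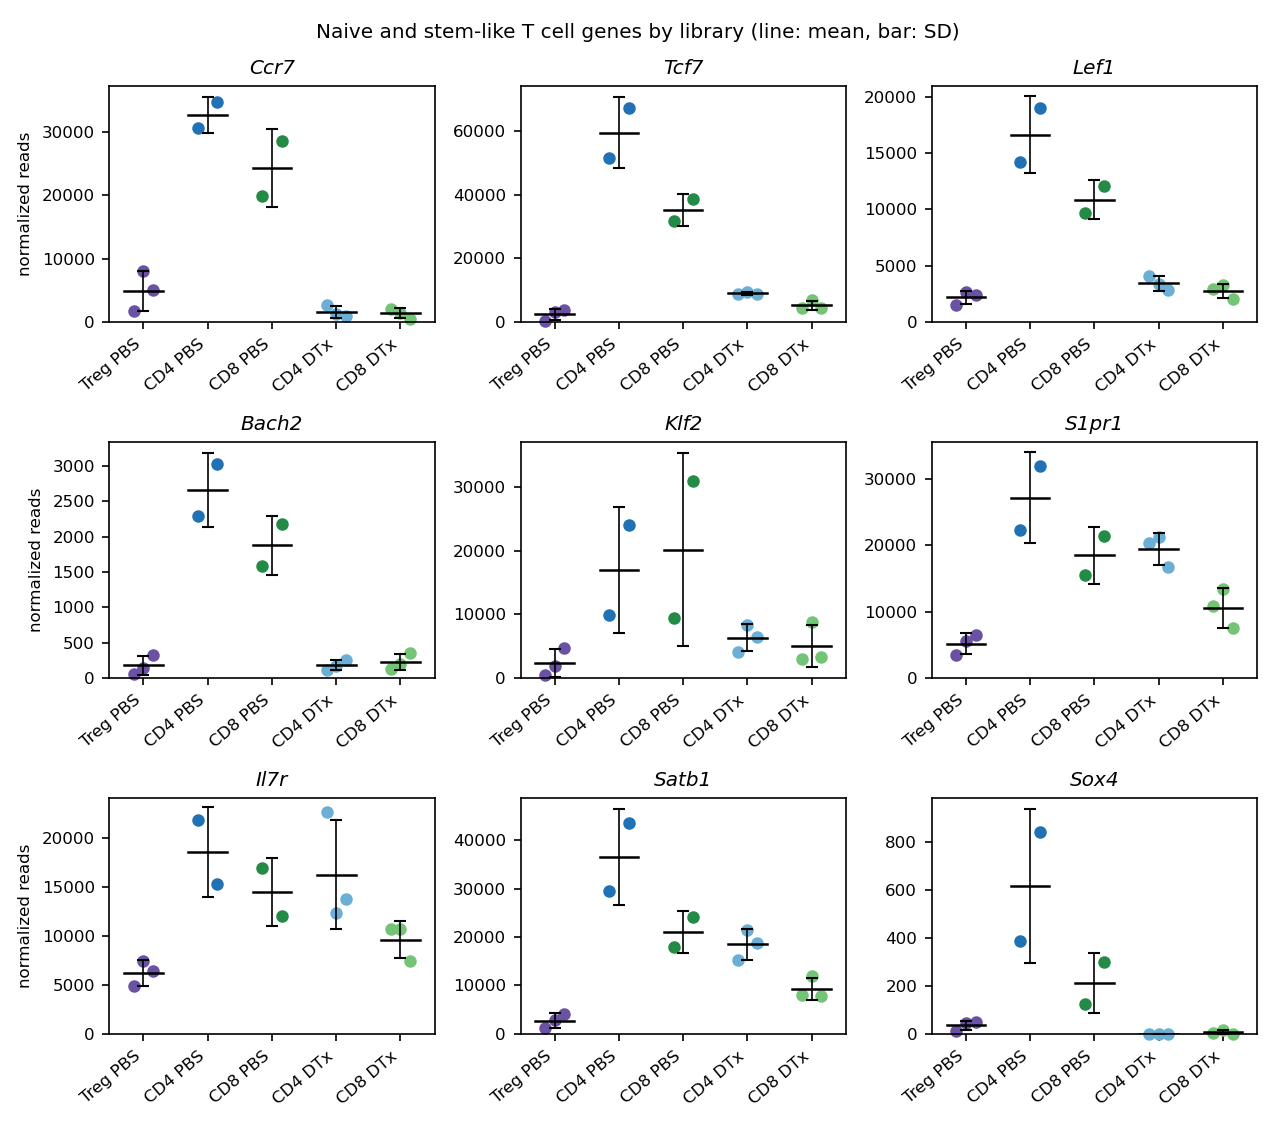
Normalized reads (linear axes from 0) of the 9 genes in each of 13 libraries, as points by group with the mean as a line and the SD as a bar. Ccr7, Tcf7, Lef1, Bach2 and Sox4 are highest in the PBS Tconv groups, while S1pr1, Il7r and Satb1 differ less between CD4 PBS and CD4 DTx libraries, with log2 differences of -0.47, -0.22 and -0.97.

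Tcf7 encodes TCF1, a factor of naive, memory and stem-like exhausted T cells. Its values were 51745 and 67509 normalized reads in the CD4 PBS libraries and 8799, 9575 and 8824 in the CD4 DTx libraries. In CD8 cells they were 31708 and 38786 with PBS and 4346, 6869 and 4389 with DTx. The PBS libraries were thus far above the DTx libraries in both cell types, and the 3 CD4 DTx libraries lay close together. The mean was 6.58-fold lower in CD4 DTx than in CD4 PBS cells, with a log2 fold change of -2.71 (SE 0.70, adjusted p = 0.0242). In CD8 cells it was 6.78-fold lower, with -2.79 (SE 0.70, adjusted p = 0.0254). The call was lost without any 1 of the 5 CD4 libraries (adjusted p between 0.0528 and 0.173), and in CD8 cells without PBS 2, PBS 3, DTx 1 or DTx 2 (0.0502 to 0.212). Within these 5 CD4 libraries the direction did not depend on the choice of library, with values from -2.90 to -2.51. In Treg libraries Tcf7 was at 395, 3020.2 and 3807, lowest in library 1. Ranked by mean, Tcf7 fell from CD4 PBS through CD8 PBS, CD4 DTx and CD8 DTx to Treg PBS, and no neighbours in that order overlapped.

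Lef1 is the close relative of Tcf7. Its CD4 libraries held 14208 and 19048 normalized reads with PBS and 4079, 3409 and 2796 with DTx. CD8 PBS libraries held 9648 and 12123 and CD8 DTx libraries 2887, 3321 and 2041. Again no DTx library reached a PBS library of its cell type. The log2 fold change was -2.28 (SE 0.29, adjusted p = 0.000375) in CD4 cells and -2.005 (SE 0.29, adjusted p = 0.00162) in CD8 cells. The CD8 value sat on the 4-fold line and fell below it, with the adjusted p still under 0.05, without CD8 PBS 3 (-1.84), without CD8 DTx 3 (-1.80) and with TMM scaling (-1.98), edgeR (-1.96), DESeq2 (-1.99) or a replicate block (-1.98). Treg libraries held 1497, 2640 and 2399, which overlapped with CD8 DTx but lay below every CD4 DTx library. CD4 DTx and CD8 DTx libraries also overlapped for Lef1.

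Bach2, a repressor of effector differentiation, had CD4 values of 2296 and 3031 with PBS and 112, 171 and 259 with DTx. Its CD8 values were 1585 and 2175 with PBS and 132, 193 and 358 with DTx. Treg libraries held 55.9, 144 and 328. The DTx groups and the Treg group overlapped throughout, and all 9 of their libraries lay below the 4 PBS Tconv libraries. Means were 2663 ± 519.9 (SD, n = 2) in CD4 PBS against 181 ± 74.1 (n = 3) in CD4 DTx, 14.7-fold lower, with a log2 fold change of -3.94 (SE 0.64, adjusted p = 0.00174). In CD8 cells Bach2 was 8.26-fold lower, with -3.15 (SE 0.64, adjusted p = 0.00929), and this call was lost without CD8 PBS 3 (-2.92, adjusted p = 0.127).

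Sox4 rested on few reads, and it was the only one of the 9 genes listed at 0 in a whole group. It was at 388 and 842 normalized reads in CD4 PBS libraries, and no read was recovered in any of the 3 CD4 DTx libraries. CD8 PBS libraries held 124 and 301, and CD8 DTx libraries held 5.54, 16.4 and 0, which came from 6, 17 and 0 reads. In Treg libraries it was at 13.5, 44.4 and 49.4. CD4 DTx was at least 156-fold below the CD4 PBS mean of 615 ± 321 (SD, n = 2). This bound takes the highest 3-read floor of the CD4 DTx libraries, 3.95, and was not itself tested. The limma log2 fold change was -9.16 (SE 1.13, adjusted p = 0.000311), and it ranged from -12.2 to -5.86 over the alternatives. CD8 DTx was 29.1-fold below CD8 PBS by the ratio of means, with a log2 fold change of -5.33 (SE 1.13, adjusted p = 0.0108), a call lost without CD8 PBS 3 (-4.69, adjusted p = 0.165).

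Satb1, a chromatin organizer of T cells, was not called in either cell type. CD4 PBS libraries held 29444 and 43518 normalized reads and CD4 DTx libraries 15244, 21529.9 and 18714. CD8 PBS libraries held 17902 and 24129 and CD8 DTx libraries 8060.5, 11955 and 7730.1. DTx libraries lay below the PBS libraries in each cell type, yet all of them lay above the Treg libraries, at 1141, 2906 and 4146. The log2 difference between DTx and PBS was -0.97 (SE 0.44, adjusted p = 0.182) in CD4 cells, with a 95% interval of -1.92 to -0.02. In CD8 cells it was -1.20 (SE 0.44, adjusted p = 0.102), with an interval of -2.15 to -0.25. Neither passed the adjusted threshold.

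Ccr7, the lymph node homing receptor, had the widest gap between PBS and DTx among the genes detected in every library. Its CD4 values were 30630.4 and 34691 with PBS and 2713, 1241 and 913 with DTx. In CD8 cells they were 19947 and 28669 with PBS and 2079.6, 1431 and 516 with DTx. The DTx library numbered 1 was the highest of its group in both cell types and number 3 the lowest. Means fell from 32661 ± 2871 (SD, n = 2) to 1622 ± 959 (n = 3) in CD4 cells, 20.1-fold, with a log2 fold change of -4.49 (SE 0.67, adjusted p = 0.00102). In CD8 cells Ccr7 was 18.1-fold lower, with -4.37 (SE 0.67, adjusted p = 0.00217). Fitted on the CD8 groups alone the adjusted p was 0.0516, while the call held without each single library in turn. Treg libraries held 1655, 7979.6 and 5051, below the PBS Tconv libraries and overlapping with both DTx groups.

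Neither S1pr1, the egress receptor, nor its activator Klf2 was called after DTx. CD4 libraries held 22276 and 31994 normalized reads of S1pr1 with PBS and 20309.9, 21272 and 16693 with DTx. In CD8 cells it was at 15442 and 21450 with PBS and at 10874, 13409.6 and 7457 with DTx. The groups of a cell type did not overlap, but the log2 difference was small, -0.47 (SE 0.32, adjusted p = 0.380) in CD4 cells with a 95% interval of -1.16 to 0.22, and -0.82 (SE 0.32, adjusted p = 0.121) in CD8 cells with -1.51 to -0.13. A fall of S1pr1 as large as 4-fold thus lay outside both intervals. Treg libraries held 3397, 5608 and 6404, below every Tconv library.

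Klf2 was at 9917 and 23965 in CD4 cells and at 9424 and 30850 in CD8 cells with PBS. CD4 DTx libraries held 4119, 8300.3 and 6466 and CD8 DTx libraries 2985, 8789.8 and 3239.8. The PBS libraries numbered 3 were more than 2 times those numbered 2 in both cell types, and the DTx libraries all lay below both. The log2 difference was -1.35 (SE 0.84, adjusted p = 0.337) in CD4 cells and -1.96 (SE 0.84, adjusted p = 0.164) in CD8 cells, with 95% intervals of -3.18 to 0.48 and -3.79 to -0.12. Both intervals include falls of more than 4-fold as well as small ones, and the CD4 interval includes 0 while the CD8 interval does not. Neither difference passed the adjusted threshold. Treg libraries held 453, 1906 and 4692.

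Il7r encodes the IL-7 receptor chain. Its CD4 values were 21819 and 15339 with PBS and 22612, 12390.1 and 13718 with DTx, and these groups overlapped. CD8 PBS libraries held 16930.1 and 11987 and CD8 DTx libraries 10722, 10702 and 7474, without overlap. The log2 difference was -0.22 (SE 0.31, adjusted p = 0.676) in CD4 cells, with a 95% interval of -0.89 to 0.44. It was -0.58 (SE 0.31, adjusted p = 0.246) in CD8 cells, with -1.25 to 0.08. Treg libraries held 4869.6, 7465 and 6383, below all Tconv libraries. Without CD4 PBS 2, which held the higher of the PBS values, the CD4 difference turned to 0.03.

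**Figure D2:**
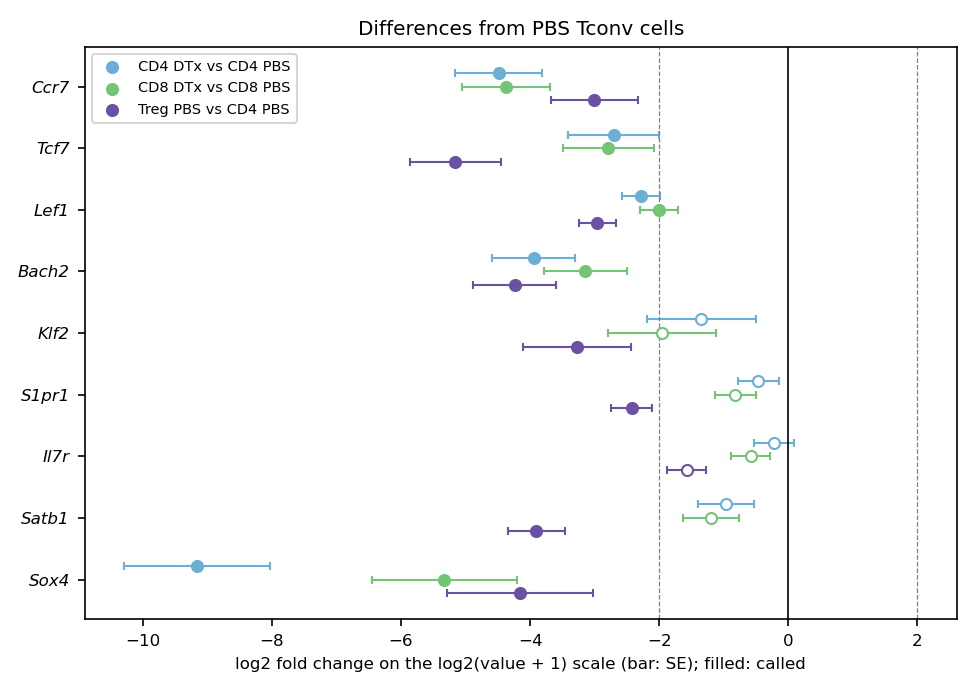
Log2 fold change on the log2(value + 1) scale (horizontal axis) of the 9 genes in CD4 DTx against CD4 PBS, CD8 DTx against CD8 PBS and Treg PBS against CD4 PBS, with SE bars and filled points for called genes. The DTx points of S1pr1, Il7r, Satb1 and Klf2 lie between -1.96 and -0.22, while those of the other 5 genes lie at or below -2.005.

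Calls in the CD8 comparison rested on few control libraries. Without CD8 PBS 3 only Ccr7 of the 5 genes was still called, and with the CD8 groups fitted alone 2 genes were, Tcf7 and Lef1. Without both DTx libraries numbered 3, an alternative chosen after seeing the data, 4 genes were called in each cell type, with Tcf7 lost in CD4 cells (-2.69, adjusted p = 0.0559) and Lef1 in CD8 cells (-1.80).

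The response to DTx was next compared between cell types. The difference of the effects (CD4 minus CD8) was called for 0 of the 9 genes by limma, edgeR and DESeq2, against 0.0474% of all genes by limma, and 1 gene, Sox4, had an unadjusted p under 0.05 (4.05% of all genes). For Sox4 the difference was -3.84 (SE 1.59, adjusted p = 1), on values at or near the floor in both DTx groups. The differences of the other 8 genes lay between -0.80 (Bach2, 95% interval -2.78 to 1.19) and 0.60 (Klf2, -1.99 to 3.20). For Lef1 the interval was -1.17 to 0.62, and for Ccr7 -2.19 to 1.96, so effects that differ by more than 2-fold lay within the intervals.

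Between the cell types with PBS, limma called 0 of 9 genes (0.908% of all genes), and edgeR and DESeq2 called 0 as well, with no gene of the 9 under an unadjusted p of 0.05 (6.53% of all genes). CD8 PBS libraries lay below CD4 PBS libraries for 7 of the 9 genes, a pattern seen for 20.7% of all genes with these groups of 2. Klf2 and Il7r overlapped. The log2 difference was -0.75 (SE 0.77) for Tcf7 and -0.61 (SE 0.32) for Lef1. After DTx, limma and edgeR again called 0 of 9 (limma called 0.426% of all genes lower and 0.576% higher), while DESeq2 called Sox4 (5.23, adjusted p = 0.0191), and 4 genes had an unadjusted p under 0.05 (11.4% of all genes). CD8 DTx libraries lay below CD4 DTx libraries without overlap for Tcf7, S1pr1, Il7r and Satb1, against 6.02% of all genes. The log2 difference was -1.01 (SE 0.39, adjusted p = 0.299) for Satb1 and -0.91 (SE 0.28, adjusted p = 0.174) for S1pr1, the latter with a 95% interval of -1.53 to -0.29.

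Treg cells held lower levels of these genes than CD4 Tconv cells from the same kind of mice. Of the 9 genes, 8 were called lower, against 2.35% of all genes, and Il7r passed the adjusted p but not the 4-fold line. With the adjusted p alone, 9 of 9 passed, against 6.91% of all genes. All 3 Treg libraries lay below both CD4 PBS libraries for every one of the 9, a pattern of 27.4% of all genes. The ratio of means was 24.8-fold for Tcf7, with a log2 fold change of -5.16 (SE 0.70, adjusted p = 0.000356), and 13.4-fold for Satb1, with -3.90 (SE 0.44, adjusted p = 0.000102). For Bach2 it was 15.1-fold, with -4.24 (SE 0.64, adjusted p = 0.000706). The log2 fold changes of Lef1 (-2.96), Klf2 (-3.27), Ccr7 (-3.01), S1pr1 (-2.43) and Sox4 (-4.15) were called too. Il7r differed by -1.57 (SE 0.31, adjusted p = 0.00355).

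Some of these calls depended on single libraries. Without CD4 PBS 3 the calls of Ccr7 (-2.92, adjusted p = 0.0662), Klf2 (-2.64, 0.157) and Sox4 (-3.60, 0.169) were lost, and without CD4 PBS 2 those of Ccr7 (-3.10, 0.0504) and Sox4 (-4.71, 0.0737). Treg library 1 was the lowest Treg library for 9 of 9 genes, and without it Sox4 was lost (-3.58, 0.0761). With the Treg PBS and CD4 PBS groups fitted alone Klf2 was lost (-3.27, 0.0949).

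Tconv cells after DTx were then set against Treg cells, to see which genes of the set met the Treg level. The DTx and Treg comparisons with CD4 PBS share their control libraries, so only the direct comparison is tested here. In CD4 DTx cells 2 genes were called higher than in Treg cells, Tcf7 and Satb1 (1.56% of all genes), and Sox4 was called lower (2.45% of all genes). Tcf7 was 3.77-fold of the Treg mean, with a log2 fold change of 2.45 (SE 0.63, adjusted p = 0.0331), and Satb1 was 6.77-fold, with 2.93 (SE 0.39, adjusted p = 0.000926). S1pr1 lay just under the 4-fold line at 1.96 (SE 0.28, adjusted p = 0.00146), and Il7r at 1.35 (SE 0.27, adjusted p = 0.0107). With the adjusted p alone, 4 genes were higher, against 3.36% of all genes. CD4 DTx libraries lay above all Treg libraries for these 4 genes and for Lef1, a pattern of 10.2% of all genes.

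Bach2, Lef1, Klf2 and Ccr7 did not pass the test between CD4 DTx and Treg cells. Bach2 differed by 0.30 (SE 0.58, adjusted p = 0.831), with a 95% interval of -0.96 to 1.55, and Lef1 by 0.68 (SE 0.26, adjusted p = 0.144), with 0.12 to 1.24. Klf2 differed by 1.92 (SE 0.75, adjusted p = 0.155). Ccr7 was lower in CD4 DTx cells by the means, with -1.48 (SE 0.60, adjusted p = 0.171), and the 2 groups overlapped. Sox4, at 0 in CD4 DTx, was at least 9.06-fold below the Treg mean of 35.8 ± 19.4 (SD, n = 3). Tcf7 was the call that depended most on the libraries. Without Treg library 1, in which Tcf7 was at 395 against 3020 and 3807, its log2 fold change was 1.42 (adjusted p = 0.0079), and without CD4 DTx 1, 2 or 3 the adjusted p was between 0.0657 and 0.0830. With CD4 DTx and Treg groups fitted alone it was 0.170. edgeR gave 1.96 (0.0652) and DESeq2 1.92 (0.00406), both under the 4-fold line. S1pr1 was called without Treg library 2 (2.05), Treg library 3 (2.15) or CD4 DTx 3 (2.07), and with TMM scaling (2.01).

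In CD8 DTx cells 0 of 9 genes were called against Treg cells by limma, edgeR and DESeq2, where limma called 4.93% of all genes, and 6 of 9 had an unadjusted p under 0.05 (19.5% of all genes). Satb1 was closest, at 1.92 (SE 0.39, adjusted p = 0.00879), and was called without Treg library 2 (2.06), Treg library 3 (2.31), CD8 DTx 1 (2.004) or CD8 DTx 3 (2.03). S1pr1 differed by 1.05 (SE 0.28, adjusted p = 0.0391). Only these genes passed the adjusted p, against 3.88% of all genes in that direction. Tcf7, S1pr1, Il7r and Satb1 lay above all Treg libraries, a pattern of 8.71% of all genes. Ccr7 was lower in CD8 DTx cells, by -1.81 (SE 0.60, adjusted p = 0.0969), and without Treg library 1 it was called (-2.46, adjusted p = 0.0247). Lef1 differed by 0.35 (95% interval -0.21 to 0.91) and Bach2 by 0.59 (-0.67 to 1.84).

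**Figure D3:**
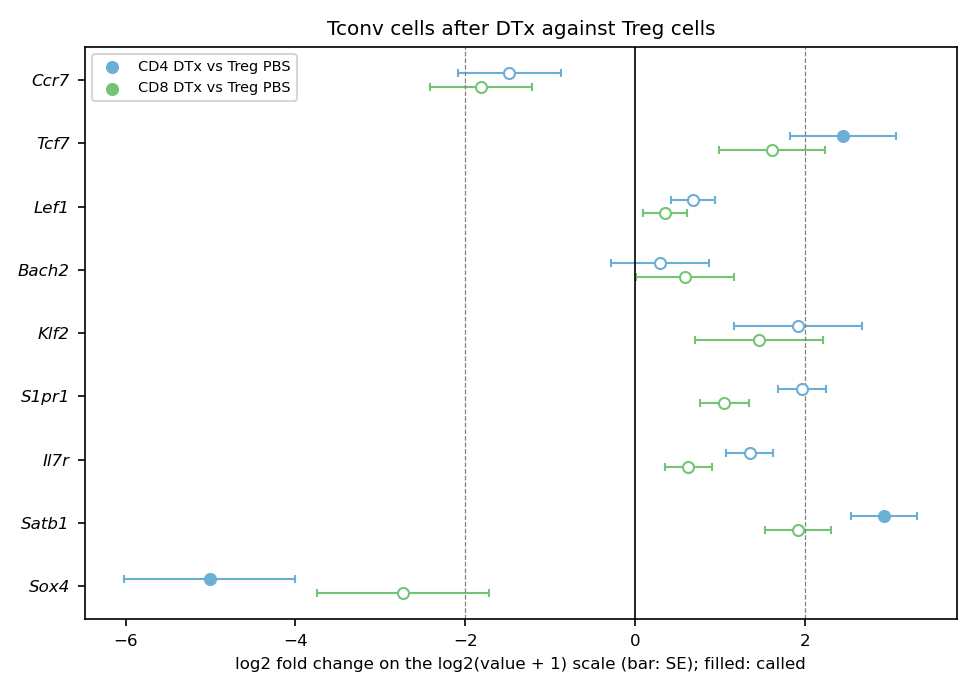
Log2 fold change on the log2(value + 1) scale (horizontal axis) of the 9 genes in CD4 DTx and CD8 DTx cells against Treg PBS cells, with SE bars and filled points for called genes. Satb1, S1pr1, Tcf7, Klf2 and Il7r lie to the right of 0 in both cell types, as do Bach2 and Lef1 (between 0.30 and 0.68), and Ccr7 and Sox4 lie to the left.

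Other genes of the same biology were taken from lists chosen with earlier results of these data known. Of 34 further naive and stem-like genes, 9 were called lower (1.79% of all genes) and 0 higher (5.06%) in CD4 DTx cells, with a median log2 fold change of -1.27 against -0.04 over all genes. In CD8 DTx cells 12 were lower (1.59% of all genes) and 0 higher (3.87%), with a median of -1.42 against -0.03. Not every gene of the list fell. Slamf6 was 0.49 (SE 0.35, adjusted p = 0.399) in CD4 and 0.14 (SE 0.35, adjusted p = 0.820) in CD8 cells. Igfbp4, which encodes a binding protein of insulin-like growth factors, ranged from 30956 to 33934 normalized reads with PBS to 175 to 375 in CD4 DTx libraries, with a log2 fold change of -7.16 (SE 1.77, adjusted p = 0.0193). In CD8 cells it was -8.87 (SE 1.77, adjusted p = 0.00789). Dapl1 changed by -6.05 (SE 1.07, adjusted p = 0.00285) in CD4 and -5.20 (SE 1.07, adjusted p = 0.00950) in CD8 cells. Il6ra, the IL-6 receptor, changed by -3.29 (SE 0.75, adjusted p = 0.0120) and -5.24 (SE 0.75, adjusted p = 0.00155). Cxcr5, the receptor for follicle homing, was 0.28 (SE 1.28, adjusted p = 0.916) in CD4 cells but -5.43 (SE 1.28, adjusted p = 0.0183) in CD8 cells.

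Called genes among the nearest relatives of the 9 genes were few and went both ways in each cell type. A call in 1 cell type alone does not show that the effects differed between cell types. Of 22 tested relatives, 3 were higher and 1 lower in CD4 DTx cells, and 1 was higher and 3 lower in CD8 DTx cells, with medians of -0.22 and -0.65, against the same shares and medians of all genes. S1pr5, a relative of S1pr1 found on NK and effector cells, ranged from 10.9 to 33.7 with PBS to 229 to 311 in CD4 DTx libraries, and from 7.998 to 173 to 547 to 1287 in CD8 libraries. Its log2 fold changes were 3.65 (SE 1.02, adjusted p = 0.0344) and 4.40 (SE 1.02, adjusted p = 0.0167), and it was listed at 0 in all 3 Treg libraries. Ccr4 rose in CD4 cells, by 2.93 (SE 0.64, adjusted p = 0.0102), and was 1.43 (SE 0.64, adjusted p = 0.181) in CD8 cells. Ccr9, a gut-homing receptor, was -5.16 (SE 1.21, adjusted p = 0.0181) in CD8 cells and -0.94 (SE 1.21, adjusted p = 0.654) in CD4 cells.

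Over 13 tested genes of egress and lymph node homing the median log2 fold change was 0.01 in CD4 and -0.09 in CD8 cells. In CD4 cells 1 of the 13 was called higher and 1 lower, and in CD8 cells 1 was called higher and 2 lower. Of all genes, 5.06% were called higher and 1.79% lower in CD4 cells, and 3.87% and 1.59% in CD8 cells. S1pr5 was the higher gene in both cell types and Ccr9 was lower in CD8 cells, with the values given above. The lower gene in CD4 cells and the other lower gene in CD8 cells are not reported here. Of 10 tissue retention genes 5 were higher in CD4 and 3 in CD8 DTx cells, with medians of 2.72 and 1.14, against 5.06% and 3.87% of all genes called higher and medians of -0.04 and -0.03. Itga1, an integrin that binds collagen, changed by 5.40 (SE 0.72, adjusted p = 0.000510) in CD4 and 4.66 (SE 0.72, adjusted p = 0.00217) in CD8 cells, and Cxcr6 by 4.16 (SE 0.47, adjusted p = 0.000188) and 2.61 (SE 0.47, adjusted p = 0.00468). Itgae, an integrin of epithelium-resident T cells, rose in CD4 cells by 4.17 (SE 0.76, adjusted p = 0.00345) and was -1.41 (SE 0.76, adjusted p = 0.260) in CD8 cells. Rgs16, a regulator of G protein signalling, rose in CD4 cells by 6.15 (SE 1.47, adjusted p = 0.0160) and was 1.25 (SE 1.47, adjusted p = 0.608) in CD8 cells. No retention gene was called lower in either cell type, but not all of them rose. Cd69 changed by -1.001 in CD4 and -1.78 in CD8 cells, Rgs2 by -1.29 and -1.04, and Adrbk1 by -0.52 and -0.65. These lower values did not pass the adjusted threshold.

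IL-7 receptor signalling genes were mostly not called. Over the 17 tested the median was -0.29 in CD4 and -0.23 in CD8 cells, against -0.04 and -0.03 over all genes. In each cell type 2 were called higher (5.06% of all genes in CD4 and 3.87% in CD8 cells) and 0 lower (1.79% and 1.59%). Both higher genes were feedback inhibitors of cytokine signalling that STAT5 induces. Cish changed by 2.47 (SE 0.26, adjusted p = 0.000152) in CD4 and 2.98 (SE 0.26, adjusted p = 0.000121) in CD8 cells, and Socs2 by 4.03 (SE 0.56, adjusted p = 0.000666) and 4.42 (SE 0.56, adjusted p = 0.000952). Of 16 partners of TCF1 and LEF1, 0 were called in CD4 cells, and 1 was called higher and 1 lower in CD8 cells, against the same shares of all genes. In CD8 cells Ctnnbip1, an inhibitor of β-catenin, was higher by 3.25 (SE 0.68, adjusted p = 0.0103) and Bcl9, a co-activator, was lower with -4.11 (SE 0.92, adjusted p = 0.0142). Among 20 effector genes, 13 were called higher in CD4 and 14 in CD8 cells, and 0 were called lower in either. Of all genes, 5.06% and 3.87% were called higher. The list medians were 2.75 and 2.81, against -0.04 and -0.03 over all genes. Tox was lower in CD4 cells, at -1.25 (SE 0.25, adjusted p = 0.00672), which passed the adjusted p but not the 4-fold line. In CD8 cells it was -0.0003 (SE 0.25). Gzmb, a killing protease, changed by 5.30 (SE 0.60, adjusted p = 0.000188) in CD4 and 5.18 (SE 0.60, adjusted p = 0.000533) in CD8 cells. Gzma changed by 3.65 (SE 0.88, adjusted p = 0.0166) and 6.02 (SE 0.88, adjusted p = 0.00171), with means of 2710 in CD4 DTx and 56475 in CD8 DTx libraries. The CD4 rise came beside the higher Cd8a values of CD4 DTx libraries, whose part in it was not tested. Havcr2, which encodes TIM-3, changed by 5.32 (SE 0.46, adjusted p = 6.98e-05) and 4.17 (SE 0.46, adjusted p = 0.000496), and Entpd1, which encodes CD39, by 5.003 (SE 0.44, adjusted p = 6.98e-05) and 3.70 (SE 0.44, adjusted p = 0.000614).

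**Figure D4:**
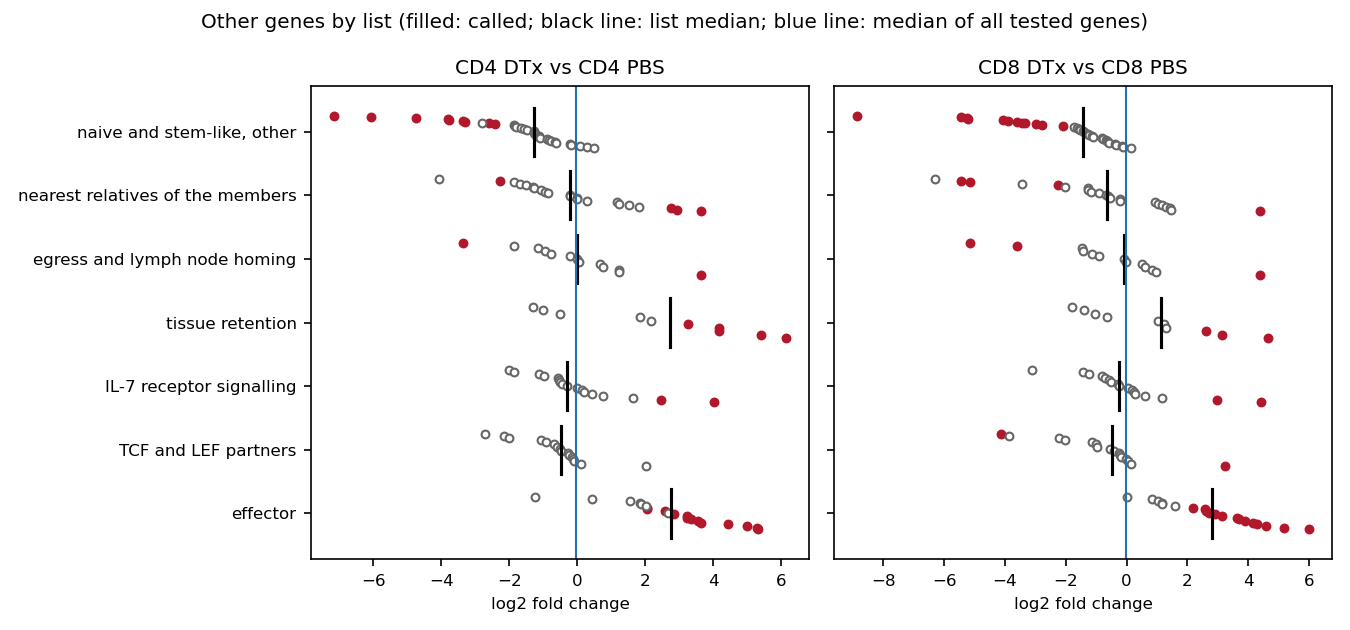
Log2 fold change (horizontal axis) of each tested gene in 7 lists for CD4 DTx against CD4 PBS and CD8 DTx against CD8 PBS, with filled points for called genes, black lines for list medians and a blue line for the median of all tested genes. The naive and stem-like list holds called genes on the left alone and the effector list on the right alone.

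The pattern of the 9 genes over the 13 libraries was described by the mean of their z-scores, without a test, since the libraries share groups and treatment. It was highest in CD4 PBS 3 (1.39) and lowest in Treg library 1 (-1.56). Pearson's r to this mean over 13 libraries was 0.982 for Tcf7 and 0.978 for Lef1, and lowest for Sox4, at 0.635. Between members it ranged from 0.129 for Il7r and Sox4 to 0.979 for S1pr1 and Satb1. Ccr7 was closest to Sox4 (0.916) and was at 0.419 with S1pr1. Outside the set, the 6 genes most like the mean were Fam101b (0.971), Tdrp (0.964), Cmah (0.953), Klf3 (0.951), Treml2 (0.947) and Gm12840 (0.942). Fam101b ranged from 4674 to 5394 normalized reads with PBS to 481 to 600.2 in CD4 DTx libraries. Its CD8 libraries held 3200.1 to 3772 with PBS and 110.4 to 237 with DTx. By Spearman's rho none of these 6 stayed among the first 6, and without the Treg libraries 2 did, so the ranking depends on both choices.

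Each member also had its own nearest genes. Klf3 (0.974) and Tdrp (0.969) were most like Tcf7, Fam101b (0.970) and Siah1a (0.961) most like Lef1, and Znrf3 (0.981) and Smarca2 (0.977) most like Bach2. Rab3ip and Hist3h2a (both 0.960) were most like Ccr7, and Fam175a (0.948) was most like Sox4. Dtx1 (0.955) and Klf3 (0.954) were most like Klf2. Satb1 (0.979) and Frmd8 (0.962) were most like S1pr1, S1pr1 (0.979) and Mylip (0.966) most like Satb1, and Bzw2 (0.931) and Gm11346 (0.894) most like Il7r.

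**Figure D5:**
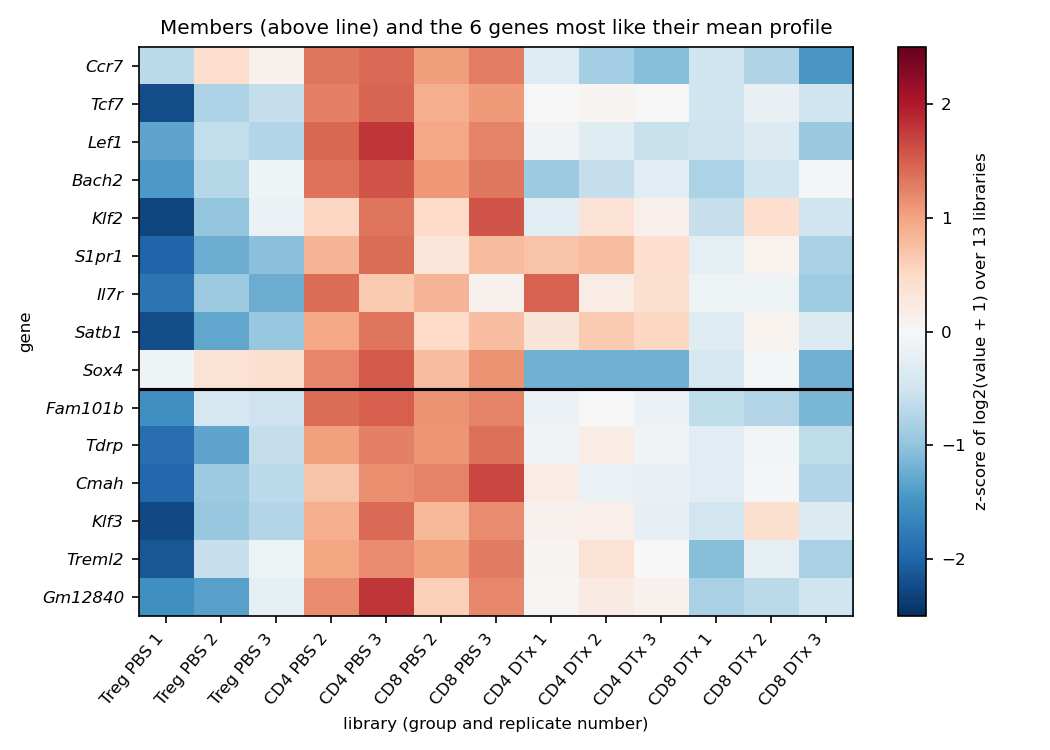
z-score of log2(value + 1) (color) of the 9 genes, above the line, and the 6 genes most like their mean, below it, in 13 libraries named by group and replicate number. PBS Tconv libraries lie above 0 in every row, although CD4 DTx libraries overlap with them for S1pr1, Il7r and Satb1, Treg library 1 is low for most rows, and CD4 DTx libraries are split between low Ccr7, Bach2 and Sox4 and higher S1pr1, Il7r and Satb1.

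Markers of other cells were summed beside these values. Of 6 erythroid genes 4 were listed, and their sum ran from 1103 to 7643 normalized reads in CD4 PBS and 1928 to 7762 in CD8 PBS libraries, against 0 to 1284 in CD4 DTx and 16.6 to 926 in CD8 DTx libraries. It was thus higher in PBS cells in CD8 libraries and overlapped in CD4 libraries. The sum of 5 listed of 6 melanocyte genes was 435 to 498 (PBS) and 89.0 to 185 (DTx) in CD4 cells, and 171 to 629 (PBS) and 64.5 to 127 (DTx) in CD8 cells. Of 5 endothelial genes 2 were listed, with sums in CD4 cells of 7098 to 7367 (PBS) and 1779 to 2729 (DTx), and in CD8 cells of 3778 to 3959 (PBS) and 952 to 1450 (DTx), nearly all from Pecam1, which naive T cells also express. Vwf was at most 94.8 in any library. Of 6 B cell genes 5 were listed, with sums of 147 to 272 in CD4 PBS, 92.6 to 158 in CD4 DTx, 794 to 853 in CD8 PBS and 276 to 1296 in CD8 DTx libraries. Cd79a was at 52.8 to 72.4 (PBS) and 1.02 to 5.27 (DTx) in CD4 cells, and Ms4a1 at 55.5 to 69.7 (PBS) and 0 to 44.8 (DTx). In CD8 cells Cd79b, at 725 to 746 (PBS) and 248 to 1296 (DTx), held most of the sum. Ebf1 was at 0 in all Tconv libraries. All 7 dendritic cell genes were listed, with sums of 73.3 to 223 (PBS) and 381 to 632 (DTx) in CD4 cells and 196 to 497 (PBS) and 616 to 693 (DTx) in CD8 cells, and Clec9a was at 0 throughout. Xcr1 held most of that sum in DTx cells, at 374 to 604 in CD4 and 478 to 657 in CD8 libraries. The sum of 6 myeloid genes overlapped between PBS and DTx in both CD4 and CD8 cells. The sum of 4 NK cell genes overlapped in CD8 cells, and in CD4 cells was 161 to 310.2 (PBS) and 418 to 757 (DTx). No fibroblast gene of 5 was listed. Treg libraries differed from CD4 PBS libraries in several of these sums. Their sums were 782 to 1229 for melanocyte, 665.5 to 1241 for dendritic cell and 461 to 948 for B cell genes, all above CD4 PBS, and 1676 to 2047 for endothelial and 16.9 to 102 for NK cell genes, below CD4 PBS. Erythroid sums (2227 to 3610.5) and myeloid sums (1144 to 3525) overlapped. The part of these transcripts, and of the CD8 transcripts in CD4 DTx libraries, in the lower values of the 9 genes in DTx and Treg libraries was not tested.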

How the data were processed

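RNA was measured in 13 libraries of sorted tumor T cells in 5 groups, assigned by the sample labels. Per the labels and the study's methods, libraries were made by a low-input SMART-type protocol and sequenced by Illumina HiSeq. Cutadapt removed adaptors, hisat2 placed the reads on NCBIM37 (mm9), and expression came from uniquely mapped reads. The labels also name FastQC and DESeq2. The read counter and its strand setting are not given in the sources used here, so overlapping genes and near-identical copies are uncertain. The authors deposited a table of normalized signal per gene, named FPM, whose library sums were 2.18e+07 to 2.75e+07. The study's methods describe FPM as scaled by library size with a normalization that uses intergenic reads. The reading as counts divided by a size factor comes from the values themselves. All values (100%, to within 0.01 of a read) were whole multiples of 1 step per library, so whole reads were recovered. The analysis had been planned for values scaled to a fixed total, and its test and settings were kept.

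Genes were tested where 2 or more libraries reached 10 normalized reads (12667 genes). Rows with date-like symbols (21) are not named. limma 3.58.1 with a trend was fitted to log2(value + 1) in R 4.3.3 with 1 mean per group, two-sided, adjusted by Benjamini-Hochberg over all tested genes. The fit was also run on simulated counts with the same spread setting for all genes. That run checks the calculation and not how calls behave on these data. A call needed an adjusted p under 0.05 and a change over 4-fold, the threshold of the study. Alternatives were edgeR 4.0.16 (quasi-likelihood) and DESeq2 1.42.0 on recovered reads, TMM and median-of-ratios scaling, pseudocounts of 0.5 and 10, no filter and a filter of 50 in 3 libraries, no fold threshold, the groups of a contrast alone, a replicate block, and leaving out each library. The methods call the libraries biological replicates, and replicates were isolated on independent days; the labels tie no number to an animal or a day, and no PBS Tconv library is numbered 1, so p-values measure the spread between these libraries. Same-numbered CD8 DTx and CD4 DTx libraries deviated together (r = 0.360, 0.207 and 0.590). For CD8 PBS and CD4 PBS libraries r was 0.189. In groups of 2 the deviations from the mean mirror each other, so both numbers give this same value. The labels give no pairing, so these values do not show that such libraries share an animal or a day. In CD8 against CD4 cells, with PBS or with DTx, 0 of the 9 genes were called by limma with the replicate block, as without it. Intervals are 95% limits from limma and floors cover counting error only, since no molecular identifiers are mentioned.

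The 9 genes, the lists and the tests were chosen with earlier results of these data known. Named genes were the 9, the label checks, at most 4 called genes of largest change per list, the 6 genes of highest Pearson r to the mean z-score, and the 2 most like each member. Cd69, Rgs2 and Adrbk1 were named as well, as retention genes with negative log2 fold changes after DTx in both cell types. Tox was named as an effector gene lower in CD4 DTx cells. Slamf6 was named as a naive and stem-like gene above 0 in both cell types. Some genes of these rules and lists are not reported here; list counts, sums and medians include them. Sequences were RefSeq start-site windows of GRCm38.p6, a build other than that of the table, and no other coordinates are given. Figures were drawn with matplotlib 3.10.9.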

Additional observations from a re-analysis of the deposited data

Results flagged for a closer look

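Itgae was the only gene named here whose DTx effect had opposite signs in every library of the cell types. Its log2 fold change was 4.17 in CD4 cells, where every DTx library lay above both PBS libraries, and -1.41 in CD8 cells, where every DTx library lay below both. The difference of the effects was 5.58 (SE 1.08, limma, adjusted p = 0.179), so it did not pass the threshold. No group was large enough to look for single outlying samples.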

How the results depend on the processing

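Of 72 log2 fold changes of the 9 genes (8 contrasts), 62 kept their direction under every alternative. The others were small and not called. Leaving out libraries moved Il7r in CD4 DTx against CD4 PBS from -0.49 to 0.030, Bach2 against Treg cells from -0.35 to 0.92 (CD4 DTx) and from -0.058 to 1.21 (CD8 DTx), Klf2 in CD8 PBS against CD4 PBS from -0.71 to 1.001, and in CD8 DTx against CD4 DTx Ccr7 from -0.76 to 0.25 and Bach2 from -0.10 to 0.62. For the difference of DTx effects the ranges were -0.69 to 0.31 (Ccr7), -0.11 to 0.30 (Tcf7), -0.25 to 1.46 (Klf2) and -0.052 to 0.51 (Satb1). Outside the set, Cxcr5 ranged from -0.28 to 0.73 and Frmd8 from -0.16 to 0.093 in CD4 DTx against CD4 PBS, and Frmd8 was 0.012 with a replicate block.

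Members called without 1 library ranged from 4 to 5 (CD4 DTx against CD4 PBS), 1 to 5 (CD8 DTx against CD8 PBS), 5 to 8 (Treg against CD4 PBS), 2 to 4 (CD4 DTx against Treg), 0 to 1 (CD8 DTx against Treg) and stayed at 0 for the other contrasts. With the groups of the contrast alone 2 members were called in CD8 DTx against CD8 PBS, with no fold threshold 5 and 2 against Treg cells (CD4 and CD8 DTx), and with DESeq2 1 in CD8 DTx against CD4 DTx. The replicate block changed CD8 DTx against CD8 PBS from 5 to 4 (Lef1) and no other member call. Replicate numbers did not pair DTx with CD4 or CD8 PBS libraries (r between -0.311 and 0.0839), nor DTx with Treg libraries by the rule that every r exceed 0.1 (0.00623 to 0.299). In each case the cause was not tested.

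Genes called over the whole table moved with no fold threshold from 868, 692, 1292, 508, 624 and 127 to 1612, 1377, 2581, 1002, 1089 and 208 (CD4 and CD8 DTx against PBS, Treg against CD4 PBS, CD4 and CD8 DTx against Treg, CD8 against CD4 DTx). The groups alone gave 201 (CD8 DTx against PBS), 34 in place of 115 (CD8 PBS against CD4 PBS) and 59 (CD8 against CD4 DTx). edgeR gave 323 for CD4 DTx against Treg and 76 for CD8 against CD4 DTx, DESeq2 gave 230 and 233 for CD8 against CD4 cells with PBS and DTx and 70 in place of 6 for the difference of effects, and leaving out both DTx libraries numbered 3 gave 1093 for CD8 DTx against PBS. Without CD4 PBS 3 the counts were 496 (CD4 DTx against PBS) and 840 (Treg), without CD8 PBS 3 153 (CD8 DTx against PBS), and other leave-outs ranged from 57 to 133 (CD8 PBS against CD4 PBS), 51 to 133 (CD8 against CD4 DTx) and 0 to 14 (difference of effects).

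With 2 PBS libraries per cell type, SE values were 0.67 to 0.84 for Ccr7, Tcf7 and Klf2. Of the 9 genes, Sox4 alone was near the detection floor. Among other named genes, Rgs16 was at 0 to 112 normalized reads in CD4 PBS libraries. In CD8 DTx libraries Cxcr5 was at 0 to 49.0, Igfbp4 at 0 to 272 and Bcl9 at 8.31 to 17.5. The large log2 fold changes of these genes rest partly on such low values.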
